A study of Rattus norvegicus with 6 samples.

Results

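The genes described here are 50 enzymes and regulators of glutathione metabolism, antioxidant defence and detoxification, measured in cultures of olfactory ensheathing cells (OECs) of the rat, the glia that accompany olfactory axons into the brain. They were chosen by name, and every probe set whose single annotated gene symbol is one of these names was used on both array types of the series. All 50 had a probe set on at least 1 type, 43 on the Affymetrix U34A array (82 probe sets) and 49 on the RAE2.0 array (63 probe sets), among 14371 genes in all. A probe set was used when its signal exceeded a floor, the 40th percentile of its array type, in at least 1 population. By this filter 38 members were measured on both types, 9 on RAE2.0 alone (Akr1b8, Ggt1, Keap1, Mt2A, Prdx4, Prdx5, Sqstm1, Srxn1 and Txn1) and 2 on U34A alone (Gsta3 and Prdx1). Gpx2, a glutathione peroxidase of epithelia, did not exceed the floor on either type.

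The arrays carried total RNA of 3 populations of Wistar rat cells from the nerve layer of both olfactory bulbs, each on 1 U34A and 1 RAE2.0 array. TEG3 is a clonal line, derived from OECs of rats at postnatal day 60 and immortalised with the large T antigen of SV40, so it stands for 1 clone. OEC Lp is a primary culture from rats at postnatal day 21 that had gone through over 50 population doublings. OEC Ep is a primary culture from rats of the same age, used after 1 week and less than 3 doublings. A purity over 90% is stated for both primary cultures. All were grown in DMEM with 3% fetal bovine serum, 20 µg/ml of bovine pituitary extract and 2 µM forskolin, an activator of adenylate cyclase. The study made 2 RNA pools of each population, each from 3 cultures, and which pool lay on which array is not given in the sources used here. Signals are MAS5 signal intensities on a linear scale, averaged over the probe sets of a gene as a geometric mean.

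Glutathione, a tripeptide with a reactive thiol, is the main soluble antioxidant of animal cells. Glutathione peroxidases use it to reduce peroxides, glutathione transferases attach it to electrophiles, and glutathione reductase restores it. Superoxide dismutases, catalase, peroxiredoxins and thioredoxin act in parallel, and aldo-keto reductases, aldehyde dehydrogenases and epoxide hydrolases remove reactive carbonyls and epoxides. Many of these genes are induced by the transcription factor NRF2, which binds the antioxidant response element in their promoters and is held in check by KEAP1. The olfactory mucosa meets inhaled chemicals and is rich in detoxification enzymes.

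Promoter windows of 4 members are shown, searched for letters that NRF2 and the metal sensor MTF1 are known to bind. They are of Ephx1, with its highest signal in OEC Lp, Gstp1 and Nqo1, highest in OEC Ep, and Mt2A, highest in TEG3. The windows are those of RefSeq on the GRCr8 assembly, from 250 bases before to 50 bases after a transcript start, written 5' to 3' on the strand of the gene. Ephx1 is at chr13:95263068-95263367, Gstp1 at chr1:210769656-210769955, Nqo1 at chr19:52220218-52220517 and Mt2A at chr19:10838659-10838958, all on the minus strand. For Ephx1, which has 2 windows, the window with a match to the antioxidant core is shown. Capitals mark the core of the antioxidant response element, TGACNNNGC on either strand, and the core of the metal response element, TGCGCNC or TGCACNC on either strand.
Ephx1: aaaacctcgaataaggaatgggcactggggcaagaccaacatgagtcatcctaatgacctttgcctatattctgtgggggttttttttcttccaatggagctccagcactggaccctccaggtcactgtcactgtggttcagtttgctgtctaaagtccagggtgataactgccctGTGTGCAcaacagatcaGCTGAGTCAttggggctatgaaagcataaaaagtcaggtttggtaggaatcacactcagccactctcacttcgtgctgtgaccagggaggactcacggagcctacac
Gstp1: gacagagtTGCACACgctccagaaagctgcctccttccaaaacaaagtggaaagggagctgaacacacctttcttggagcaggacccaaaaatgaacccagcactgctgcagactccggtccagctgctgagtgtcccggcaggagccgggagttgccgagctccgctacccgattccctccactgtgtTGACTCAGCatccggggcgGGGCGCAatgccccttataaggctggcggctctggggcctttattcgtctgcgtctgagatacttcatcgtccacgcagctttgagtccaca
Nqo1: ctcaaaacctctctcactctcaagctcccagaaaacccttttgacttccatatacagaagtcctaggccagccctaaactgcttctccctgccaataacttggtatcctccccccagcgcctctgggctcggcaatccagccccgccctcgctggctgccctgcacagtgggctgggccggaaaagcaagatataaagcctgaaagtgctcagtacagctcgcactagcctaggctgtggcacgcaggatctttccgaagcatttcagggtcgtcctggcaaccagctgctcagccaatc
Mt2A: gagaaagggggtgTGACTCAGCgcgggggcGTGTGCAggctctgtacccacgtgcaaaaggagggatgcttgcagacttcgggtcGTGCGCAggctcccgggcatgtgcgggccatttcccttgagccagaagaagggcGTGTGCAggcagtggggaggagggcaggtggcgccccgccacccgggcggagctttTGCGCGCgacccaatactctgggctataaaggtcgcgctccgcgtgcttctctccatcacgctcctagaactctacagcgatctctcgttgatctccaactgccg
Ephx1, Gstp1 and Mt2A each held 1 match to the antioxidant core, in all 3 cases the letters TGACTCAGC, in Ephx1 on the opposite strand. The first letters of this match are also the AP-1 site TGACTCA. Nqo1 held 0 matches to it in this window. The metal core had 1 match in Ephx1, 2 in Gstp1, 0 in Nqo1 and 4 in Mt2A, 0 of them overlapping the antioxidant core. RefSeq windows were matched for 39 of the 50 members (45 windows), of which 14 held the antioxidant core (31.1%), against 12.1% of all 33469 windows. The metal core was in 10 of the 45 windows (22.2%), against 24.2% of all windows. A match is a stretch of letters and was not tested as a binding site.

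The 3 arrays of a type were alike in the share of probe sets over the floor, which ranged over 59.2 to 61.6% for U34A and 59.1 to 61.8% for RAE2.0. The 3'/5' ratio of the GAPDH control was 1.54 in TEG3, 1.52 in OEC Lp and 1.96 in OEC Ep on U34A, and lay between 0.98 and 1.02 on RAE2.0. Most markers of OECs and Schwann cells were lower in TEG3 and OEC Lp than in OEC Ep, but fewer reached the floor on U34A than on RAE2.0. Of the 10 such markers measured on RAE2.0, 8 were at the floor in TEG3, 8 in OEC Lp and 0 in OEC Ep, with a summed signal of 2335 in TEG3, 1715 in OEC Lp and 97315 in OEC Ep. Of 9 on U34A, 1 was at the floor in TEG3, 5 in OEC Lp and 0 in OEC Ep, with a summed signal of 5474 in TEG3, 3885 in OEC Lp and 34658 in OEC Ep, and 8 were at least 2-fold lower in TEG3, and 8 in OEC Lp, than in OEC Ep. The U34A probe sets of Ngfr, the p75 neurotrophin receptor, disagreed, with signals of 8593 in TEG3, 6651 in OEC Lp and 6397 in OEC Ep on one and 1526 in TEG3, 992 in OEC Lp and 25277 in OEC Ep on the other. Sox10, a transcription factor of neural crest glia, had RAE2.0 signals of 233 in TEG3, 168 in OEC Lp and 5743 in OEC Ep. Of 12 markers of microglia and macrophages on RAE2.0, 8 were at the floor in TEG3, 9 in OEC Lp and 0 in OEC Ep, and their summed signal was 2949 in TEG3, 4888 in OEC Lp and 63582 in OEC Ep. Of 7 such markers used on U34A, 4 were at the floor in TEG3, 3 in OEC Lp and 0 in OEC Ep. Fibroblast and meningeal markers summed to 46727 in TEG3, 134954 in OEC Lp and 188198 in OEC Ep on RAE2.0. Neuron markers there summed to 4289 in TEG3, 920 in OEC Lp and 36918 in OEC Ep. The largest of these in OEC Ep were Nefm (20209), Nefl (9367) and Uchl1 (6966), and Snap25, Syt1 and Rbfox3 did not pass the filter. Endothelial markers summed to 1281 in TEG3, 1889 in OEC Lp and 992 in OEC Ep on RAE2.0. On U34A they summed to 906 in TEG3, 514 in OEC Lp and 541 in OEC Ep. A signal at the floor counts as the floor in these sums.

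Gpx3 and Sod3, which code for secreted antioxidant enzymes, were far lower in TEG3 and in OEC Lp than in OEC Ep. Nqo1, a quinone reductase, was lower in TEG3 than in OEC Ep. OEC Lp instead had more Akr1c14, Gstm2, Gclc and Ephx1 than OEC Ep, and TEG3 had less Akr1c14 than OEC Lp. The calls come from a limma fit over 3131 genes with population and array type as terms, at a Benjamini-Hochberg adjusted p under 0.05. Between TEG3 and OEC Ep, 3 of the 38 members measured on both types passed (background 4.34% of all genes tested). These 3 were lower in TEG3 (background 3.7%) and 0 were higher (background 0.639%), where 9 members (23.7%) had an unadjusted p under 0.05 by limma in either direction, near the 21.7% of all genes tested. Between OEC Lp and OEC Ep, 6 members passed (background 6.13%), of which 4 were higher in OEC Lp (background 2.11%) and 2 were lower (background 4.02%). Between TEG3 and OEC Lp, 1 member passed (background 1.21%), lower in TEG3 (background 1.02%), and 0 were higher (background 0.192%), where 8 members (21.1%) had an unadjusted p under 0.05 by limma, against 15.4% of all genes. Akr1c14 exceeded the floor in OEC Lp alone, which is also how it passed the filter. In the same way, 1 U34A probe set of each of Gpx3, Sod3 and Nqo1 passed through OEC Ep alone. The median log2 fold of the 38 members was 0.13 in TEG3 against OEC Ep, with 0.04 over all genes tested. It was 0.16 in OEC Lp against OEC Ep, with 0.11 over all genes, and -0.06 between TEG3 and OEC Lp, with -0.01 over all genes. The comparisons share arrays and are not independent of each other.

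The residual of the fit is the disagreement of the array types, which need not be biological replicates, and the p-values may then reflect technical spread alone. None of these calls held when either array of OEC Ep or of OEC Lp was left out, and without either TEG3 array only Gpx3 and Sod3 passed, between OEC Lp and OEC Ep.

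**Figure D1:**
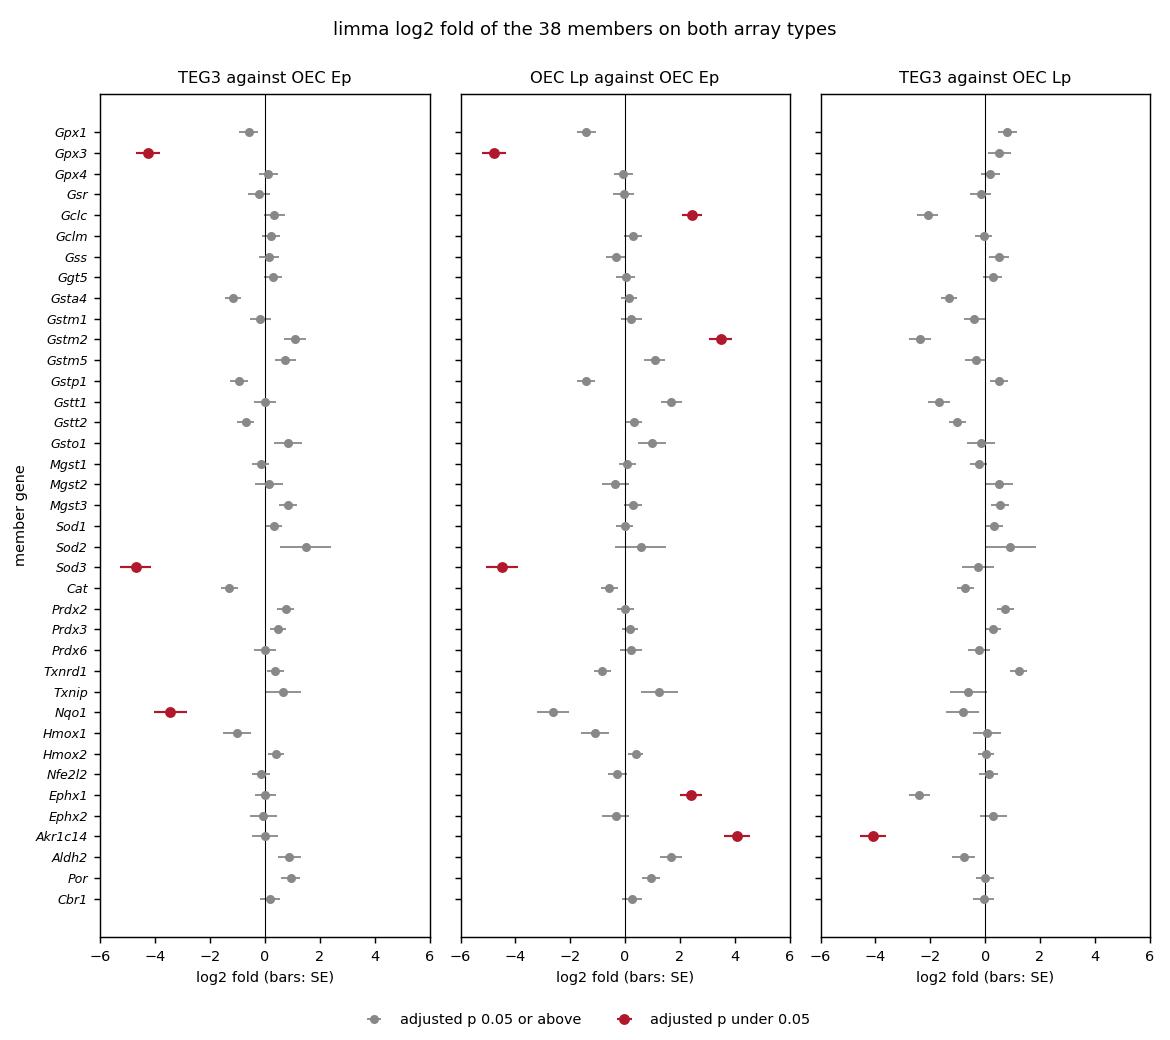
Fitted log2 fold (first minus second population, in 3 panels) of the 38 members measured on both array types, with bars of 1 SE, from the limma fit over 6 arrays. Red points passed an adjusted p under 0.05: 3 members in TEG3 against OEC Ep, 6 in OEC Lp against OEC Ep, and 1 (Akr1c14) between TEG3 and OEC Lp.

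Differences of at least 2-fold on a single array type carry no test. On RAE2.0, which measured 47 members, 5 were that much higher in TEG3 than in OEC Ep (background 12.1%) and 10 that much lower (background 10.6%). In OEC Lp, 8 were that much higher than in OEC Ep (background 10.4%) and 10 that much lower (background 10.4%). TEG3 set against OEC Lp had 4 that much higher (background 9.63%) and 8 that much lower (background 8.66%). On U34A, which measured 40 members, TEG3 had 4 that much higher (background 10.5%) and 5 that much lower (background 12.9%) than OEC Ep. OEC Lp had 8 that much higher (background 11%) and 5 that much lower (background 10.1%) than OEC Ep, and TEG3 had 1 that much higher (background 8.08%) and 8 that much lower (background 11.6%) than OEC Lp.

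**Figure D2:**
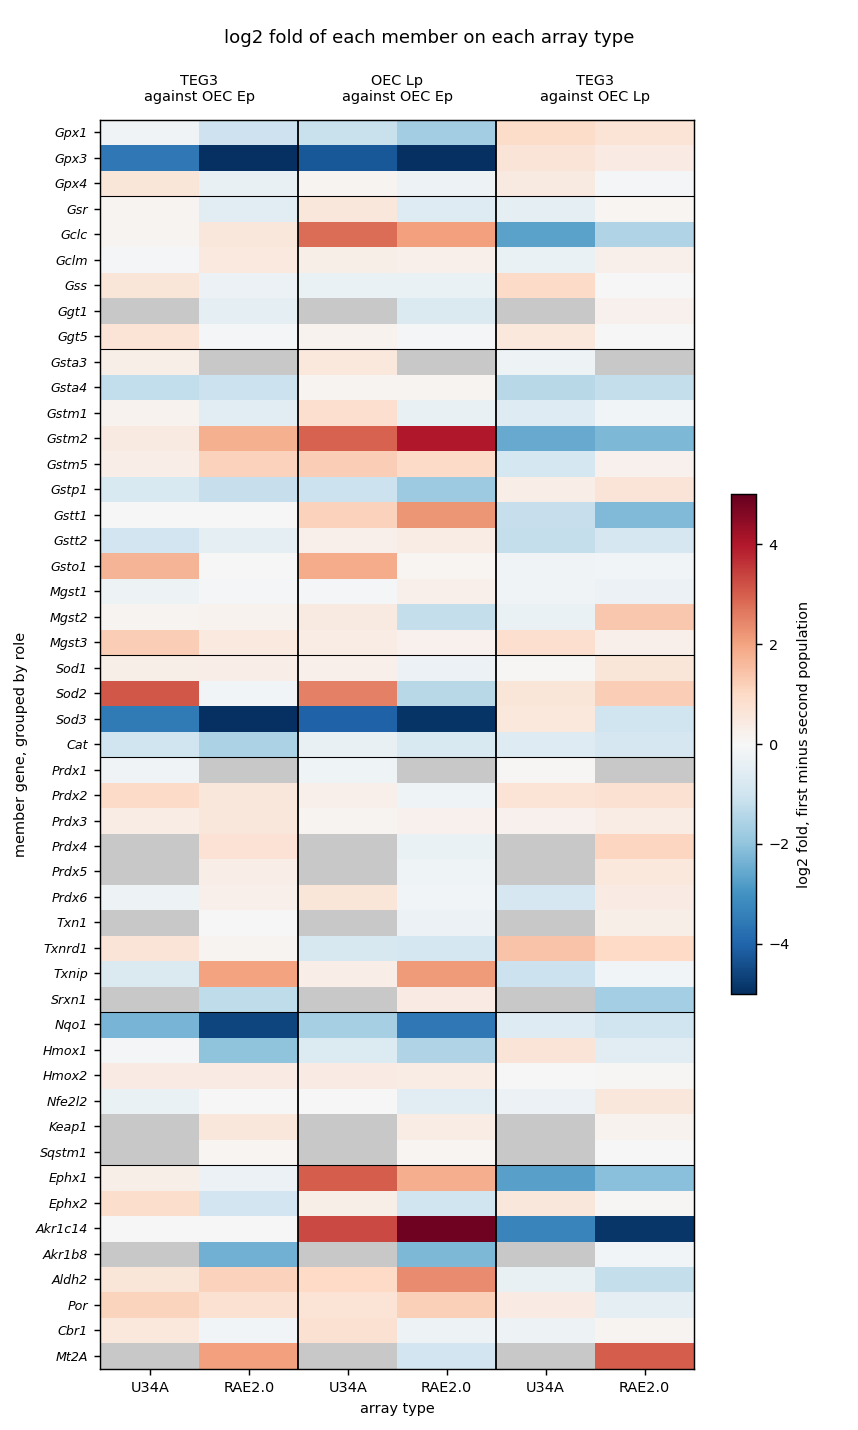
log2 fold of the measured members on each array type (rows, grouped by role; columns, comparison and array type; colour scale from -5 to 5, grey where a type did not measure the gene). Gpx3 and Sod3 are dark blue in both comparisons with OEC Ep, and Akr1c14 is the darkest red in OEC Lp against OEC Ep.

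Glutathione synthesis is limited by glutamate-cysteine ligase, whose catalytic subunit is coded by Gclc and whose modifier subunit is coded by Gclm. Gclc had U34A signals of 140 in TEG3, 895 in OEC Lp and 128 in OEC Ep, and RAE2.0 signals of 1432 in TEG3, 4079 in OEC Lp and 968 in OEC Ep. It was highest in OEC Lp on both types, and at the floor in OEC Ep on U34A. It rose 5.42-fold in OEC Lp against OEC Ep as fitted over both types (log2 fold 2.44 ± 0.38 SE, adjusted p = 0.0249). The separate values were at least 6.97-fold on U34A and 4.21-fold on RAE2.0. Between TEG3 and OEC Lp its log2 fold was -2.09 ± 0.38 (adjusted p = 0.0749), and between TEG3 and OEC Ep it was 0.34 ± 0.38 (adjusted p = 0.659), neither past the threshold. Its partner Gclm had U34A signals of 477 in TEG3, 608 in OEC Lp and 491 in OEC Ep, and RAE2.0 signals of 1375 in TEG3, 1166 in OEC Lp and 983 in OEC Ep. These signals lay close together, with a log2 fold of 0.28 ± 0.32 in OEC Lp against OEC Ep (adjusted p = 0.696). The other genes of the cycle on both types, the synthetase Gss, the reductase Gsr and the surface transpeptidase Ggt5, had log2 folds between -0.34 and 0.5 in the 3 comparisons, and 0 of them passed. Ggt1, also a transpeptidase, had RAE2.0 signals of 273 in TEG3, 235 in OEC Lp and 384 in OEC Ep.

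Among the glutathione peroxidases, Gpx3, the secreted plasma form, had U34A signals of 321 in TEG3, 204 in OEC Lp and 3817 in OEC Ep, and RAE2.0 signals of 221 in TEG3, 168 in OEC Lp and 6917 in OEC Ep. OEC Ep stood far above the others on both types, and OEC Lp was at the floor on RAE2.0. TEG3 against OEC Ep gave a fitted fall of 19.3-fold (log2 fold -4.27 ± 0.43, adjusted p = 0.0108). OEC Lp against OEC Ep gave a fitted fall of 27.7-fold (-4.79 ± 0.43, adjusted p = 0.00782). The fall in TEG3 was 11.9-fold on U34A and 31.3-fold on RAE2.0, and that in OEC Lp 18.7-fold on U34A and at least 41.2-fold on RAE2.0. TEG3 and OEC Lp were 0.52 ± 0.43 apart on the log2 scale (adjusted p = 0.638). Gpx1, the abundant cytosolic form, had U34A signals of 4378 in TEG3, 2293 in OEC Lp and 4954 in OEC Ep, and RAE2.0 signals of 11651 in TEG3, 7203 in OEC Lp and 23703 in OEC Ep. OEC Lp was lowest and OEC Ep highest on both types, yet the log2 fold between them, -1.41 ± 0.34, did not reach the threshold (adjusted p = 0.0859). Gpx4, which reduces lipid hydroperoxides in membranes, had log2 folds of 0.12 in TEG3 against OEC Ep, -0.07 in OEC Lp against OEC Ep and 0.18 between TEG3 and OEC Lp.

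The superoxide dismutases differ by compartment, with SOD1 mainly in the cytosol, SOD2 in mitochondria and SOD3 secreted and bound to the matrix. Sod3 had U34A signals of 642 in TEG3, 452 in OEC Lp and 7499 in OEC Ep, and RAE2.0 signals of 531 in TEG3, 1060 in OEC Lp and 31629 in OEC Ep. As with Gpx3, OEC Ep was far above the others on both types. As fitted, Sod3 fell 26.4-fold in TEG3 against OEC Ep (log2 fold -4.72 ± 0.58, adjusted p = 0.0173) and 22.2-fold in OEC Lp against OEC Ep (-4.48 ± 0.58, adjusted p = 0.0162). The fall in TEG3 was 11.7-fold on U34A and 59.6-fold on RAE2.0, and that in OEC Lp 16.6-fold on U34A and 29.8-fold on RAE2.0. Sod1 had log2 folds of 0.31 in TEG3 against OEC Ep, -0.02 in OEC Lp against OEC Ep and 0.33 between TEG3 and OEC Lp, with adjusted p-values of 0.629 to 0.977. Sod2 had U34A signals of 2377 in TEG3, 1559 in OEC Lp and 273 in OEC Ep, but RAE2.0 signals of 18630 in TEG3, 7964 in OEC Lp and 20730 in OEC Ep. The types disagree on OEC Ep, lowest on one and highest on the other, and the fitted log2 fold of TEG3 against OEC Ep, 1.48 ± 0.93, did not pass (adjusted p = 0.415). Cat, the catalase of peroxisomes, had U34A signals of 382 in TEG3, 590 in OEC Lp and 772 in OEC Ep, and RAE2.0 signals of 2445 in TEG3, 4340 in OEC Lp and 7401 in OEC Ep. The order was the same on both types, and TEG3 against OEC Ep gave -1.31 ± 0.31 (adjusted p = 0.0906).

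Gpx3, Sod3 and Nqo1 were highest in OEC Ep, as were most markers of OECs and of macrophages given above. Most of those markers were at the RAE2.0 floor in TEG3 and OEC Lp. On RAE2.0, Sod3 and Nqo1 were above the floor in each population, and Gpx3 was at it in OEC Lp alone. On U34A, 1 probe set of each of Gpx3, Sod3 and Nqo1 was at the floor in TEG3 and in OEC Lp. The summed fibroblast and neuron markers on RAE2.0 were also highest in OEC Ep, and the summed endothelial markers were not. Aif1, a marker of microglia, had U34A signals of 128 in TEG3, 128 in OEC Lp and 1407 in OEC Ep and RAE2.0 signals of 168 in TEG3, 168 in OEC Lp and 1223 in OEC Ep, at the floor in all but OEC Ep. The part of these cells in the falls of Gpx3, Sod3 and Nqo1 was not tested. In such cultures fewer cells of a type and less RNA per cell cannot be told apart.

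Of 11 glutathione transferases measured on both types, 1 passed, Gstm2 in OEC Lp against OEC Ep (background 6.13% of all genes tested). In TEG3 against OEC Ep (background 4.34%) and TEG3 against OEC Lp (background 1.21%) 0 passed. There limma gave 4 (36.4%) with an unadjusted p under 0.05 in each, against 21.7% and 15.4% of all genes. Gstm2, a cytosolic transferase of the mu class, had U34A signals of 621 in TEG3, 3574 in OEC Lp and 459 in OEC Ep, and RAE2.0 signals of 991 in TEG3, 4643 in OEC Lp and 290 in OEC Ep. OEC Lp was highest on both types. Gstm2 rose 11.2-fold in OEC Lp against OEC Ep (log2 fold 3.48 ± 0.41, adjusted p = 0.0134), and TEG3 against OEC Lp gave -2.38 ± 0.41 (adjusted p = 0.0699). Gstm1, of the same class, had log2 folds in OEC Lp against OEC Ep of 0.84 on U34A and -0.38 on RAE2.0. Gstm5 had a fitted log2 fold of 1.08 ± 0.38 there (adjusted p = 0.198). Both U34A probe sets of Gstm2 carry the suffix that Affymetrix gives to probes shared by several transcripts, as do 25 of the 75 member probe sets used on U34A, so signals of near-identical relatives can be mixed there. The single RAE2.0 probe set of Gstm2 does not carry it.

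Gstt1, a transferase of the theta class, had U34A signals of 128 in TEG3, 285 in OEC Lp and 128 in OEC Ep, and RAE2.0 signals of 168 in TEG3, 778 in OEC Lp and 168 in OEC Ep. It was at the floor in TEG3 and OEC Ep on both types and above it in OEC Lp. The log2 fold of OEC Lp against OEC Ep was 1.68 ± 0.39 in the fit and did not pass (adjusted p = 0.0759), with at least 2.22-fold on U34A and at least 4.63-fold on RAE2.0. Its probe sets passed the filter through OEC Lp alone, so that a difference was built into their choice. Gstp1, the pi class enzyme, had U34A signals of 4957 in TEG3, 3936 in OEC Lp and 8354 in OEC Ep, and RAE2.0 signals of 14372 in TEG3, 9159 in OEC Lp and 31830 in OEC Ep. It was highest in OEC Ep and lowest in OEC Lp on both types, with a log2 fold of -0.95 ± 0.33 in TEG3 (adjusted p = 0.177) and of -1.44 ± 0.33 in OEC Lp (adjusted p = 0.0712) against OEC Ep. Gsta4, which removes the lipid aldehyde hydroxynonenal, had its lowest signal in TEG3 on both types, with log2 folds of -1.16 ± 0.29 against OEC Ep (adjusted p = 0.0988) and -1.31 ± 0.29 against OEC Lp (adjusted p = 0.117). The remaining transferases on both types, Gstt2, Gsto1 and the microsomal Mgst1, Mgst2 and Mgst3, had fitted log2 folds between -1.02 and 0.98 in the 3 comparisons, and 0 of them passed. Gsta3, of the alpha class, had U34A signals of 805 in TEG3, 956 in OEC Lp and 659 in OEC Ep. These come from 1 of its 3 U34A probe sets, of the kind shared by several transcripts. Its other U34A probe sets and its RAE2.0 probe set did not exceed the floor in any population.

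Of the 10 peroxiredoxin and thioredoxin genes, 5 were measured on both types, and 0 of these passed in any comparison by limma. Over all genes tested, 4.34% passed in TEG3 against OEC Ep, 6.13% in OEC Lp against OEC Ep and 1.21% between TEG3 and OEC Lp. By limma 0 of the 5 had an unadjusted p under 0.05 in TEG3 against OEC Ep (21.7% of all genes). In OEC Lp against OEC Ep 1 had (19.5% of all genes), and between TEG3 and OEC Lp 1 had (15.4%). Txnrd1, the cytosolic thioredoxin reductase, had U34A signals of 5571 in TEG3, 2051 in OEC Lp and 3547 in OEC Ep, and RAE2.0 signals of 4480 in TEG3, 2245 in OEC Lp and 4135 in OEC Ep. OEC Lp was lowest on both types, and TEG3 against OEC Lp gave 1.22 ± 0.31 on the log2 scale (adjusted p = 0.166). The peroxiredoxins Prdx2, Prdx3 and Prdx6, which reduce peroxides, had log2 folds between -0.22 and 0.75. Prdx1, of the same family, had U34A signals of 14388 in TEG3, 13963 in OEC Lp and 16247 in OEC Ep. Txn1, thioredoxin itself, had RAE2.0 signals of 49735 in TEG3, 40333 in OEC Lp and 49929 in OEC Ep. Prdx4, the peroxiredoxin of the endoplasmic reticulum, had RAE2.0 signals of 20386 in TEG3, 9660 in OEC Lp and 12231 in OEC Ep. Prdx1 and Txn1 varied little between populations and Prdx4 was highest in TEG3, with no replicate check. Prdx5 had RAE2.0 signals of 10745 in TEG3, 7373 in OEC Lp and 8500 in OEC Ep. Srxn1, the sulfiredoxin that repairs peroxiredoxins, had RAE2.0 signals of 326 in TEG3, 1041 in OEC Lp and 791 in OEC Ep, lowest in TEG3. Txnip, an inhibitor of thioredoxin that responds to glucose, had U34A signals of 322 in TEG3, 684 in OEC Lp and 535 in OEC Ep, and RAE2.0 signals of 16360 in TEG3, 17873 in OEC Lp and 4055 in OEC Ep. Its log2 fold in TEG3 against OEC Ep came to -0.73 with U34A but 2.01 with RAE2.0. The fit gave 0.64 ± 0.66 (adjusted p = 0.631).

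NRF2 itself, coded by Nfe2l2, had U34A signals of 933 in TEG3, 1160 in OEC Lp and 1178 in OEC Ep, and RAE2.0 signals of 7830 in TEG3, 5272 in OEC Lp and 7656 in OEC Ep. Its log2 folds were -0.15 in TEG3 against OEC Ep (adjusted p = 0.843), -0.28 in OEC Lp against OEC Ep (adjusted p = 0.714) and 0.13 between TEG3 and OEC Lp (adjusted p = 0.913). Keap1, measured on RAE2.0 alone, had signals of 692 in TEG3, 611 in OEC Lp and 474 in OEC Ep. Sqstm1, which codes for the autophagy receptor that binds KEAP1, had RAE2.0 signals of 2120 in TEG3, 2158 in OEC Lp and 2006 in OEC Ep. Nqo1, a classic NRF2 target, had U34A signals of 511 in TEG3, 801 in OEC Lp and 2554 in OEC Ep, and RAE2.0 signals of 909 in TEG3, 1798 in OEC Lp and 21705 in OEC Ep. The order of the populations was the same on both types. As fitted, Nqo1 fell 10.9-fold in TEG3 against OEC Ep (log2 fold -3.45 ± 0.59, adjusted p = 0.0405), and its log2 fold in OEC Lp against OEC Ep, -2.63 ± 0.59, did not pass (adjusted p = 0.0711). The fall of Nqo1 in TEG3 was 5-fold on U34A and 23.9-fold on RAE2.0. Gclc, described above and also a known NRF2 target, had its lowest signal in OEC Ep, where Nqo1 had its highest. For Gclc, TEG3 and OEC Ep did not differ past the threshold (limma log2 fold 0.34 ± 0.38, adjusted p = 0.659). Hmox1, the inducible heme oxygenase, had U34A signals of 1823 in TEG3, 1175 in OEC Lp and 1884 in OEC Ep, and RAE2.0 signals of 834 in TEG3, 1188 in OEC Lp and 3415 in OEC Ep. Its fitted log2 fold in TEG3 against OEC Ep was -1.04 ± 0.51 (adjusted p = 0.309), with -0.05 on U34A and -2.03 on RAE2.0. Hmox2, the constitutive form, had log2 folds of 0.40 in TEG3 against OEC Ep, 0.38 in OEC Lp against OEC Ep and 0.02 between TEG3 and OEC Lp.

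**Figure D3:**
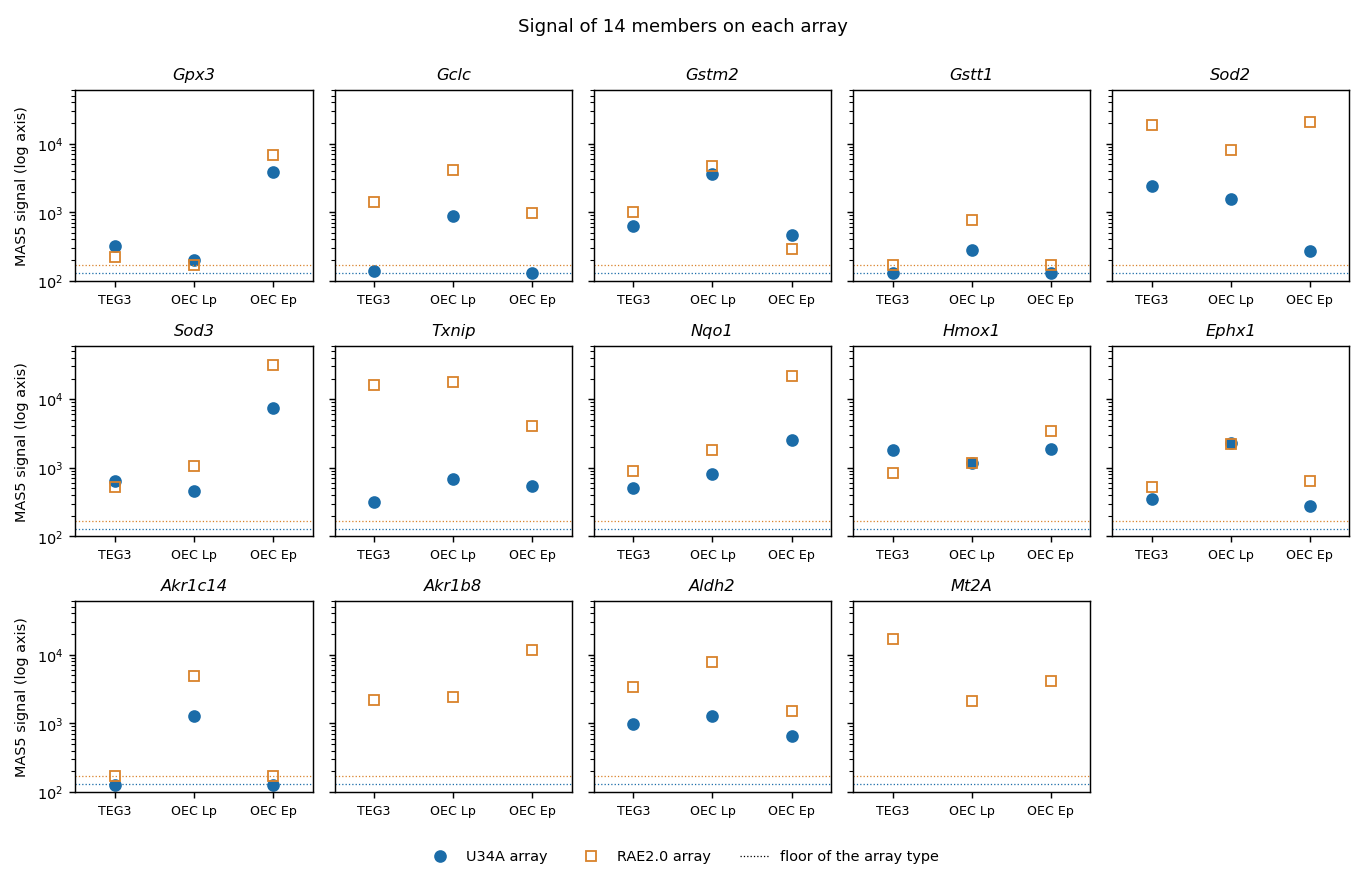
MAS5 signal (log axis) of the 14 members that passed a test or differed at least 4-fold on an array type, in TEG3, OEC Lp and OEC Ep; filled circles are U34A, open squares RAE2.0 and dotted lines the floors of 128.4 and 168. Gpx3, Sod3 and Nqo1 are highest in OEC Ep, Akr1c14, Gstm2, Gclc, Gstt1 and Ephx1 are highest in OEC Lp, and Mt2A is highest in TEG3.

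Of the oxidoreductases and hydrolases, Akr1c14, a hydroxysteroid dehydrogenase of the aldo-keto reductase family, had U34A signals of 128 in TEG3, 1261 in OEC Lp and 128 in OEC Ep, and RAE2.0 signals of 168 in TEG3, 4866 in OEC Lp and 168 in OEC Ep. All 5 of its probe sets were at the floor in TEG3 and in OEC Ep. In the fit Akr1c14 in OEC Lp was 16.9-fold above OEC Ep (log2 fold 4.08 ± 0.48, adjusted p = 0.0134) and TEG3 was below OEC Lp by the same fold (-4.08 ± 0.48, adjusted p = 0.0378). The separate values were at least 9.82-fold on U34A and at least 29-fold on RAE2.0 in both comparisons. Its probe sets passed the filter through OEC Lp alone, so that a difference was built into their choice. Without the floor the adjusted p was 0.108 in OEC Lp against OEC Ep and 0.139 between TEG3 and OEC Lp, and without the filter 0.201 and 0.291. Both of its U34A probe sets, and 1 of its 3 on RAE2.0, are of the kinds that Affymetrix marks as shared between transcripts. Relatives of the gene can thus be mixed in on both types. Ephx1, the microsomal epoxide hydrolase, had U34A signals of 348 in TEG3, 2261 in OEC Lp and 281 in OEC Ep, and RAE2.0 signals of 526 in TEG3, 2240 in OEC Lp and 644 in OEC Ep. OEC Lp was well above the others on both types. Ephx1 rose 5.29-fold in OEC Lp against OEC Ep (2.40 ± 0.39, adjusted p = 0.0261), and TEG3 against OEC Lp gave -2.40 ± 0.39 (adjusted p = 0.0581). Beside these genes, fibroblast and meningeal markers went both ways in OEC Lp against OEC Ep, with 2 at least 2-fold higher and 4 lower of 10 on U34A, and 3 higher and 6 lower of 11 on RAE2.0. Among those higher, Col3a1, a fibrillar collagen, had U34A signals of 7841 in TEG3, 39993 in OEC Lp and 6684 in OEC Ep. Among those lower, Postn had U34A signals of 128 in TEG3, 128 in OEC Lp and 14838 in OEC Ep. Summed on U34A, these markers came to 42105 in TEG3, 92881 in OEC Lp and 95538 in OEC Ep. The part of fibroblasts in the differences of Akr1c14, Gstm2, Gclc and Ephx1 was not tested.

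Aldh2, the mitochondrial aldehyde dehydrogenase, had U34A signals of 980 in TEG3, 1284 in OEC Lp and 645 in OEC Ep, and RAE2.0 signals of 3415 in TEG3, 7748 in OEC Lp and 1514 in OEC Ep. The order was the same on both types, and OEC Lp against OEC Ep gave 1.67 ± 0.41 on the log2 scale (adjusted p = 0.0868). Por, which passes electrons to cytochromes P450, was lowest in OEC Ep on both types, with log2 folds of 0.93 ± 0.34 in TEG3 (adjusted p = 0.199) and 0.94 ± 0.34 in OEC Lp (adjusted p = 0.211) against OEC Ep. Cbr1, a carbonyl reductase, and Ephx2, the soluble epoxide hydrolase, had fitted log2 folds between -0.35 and 0.3. The types disagreed on Ephx2, with 0.86 on U34A and -0.97 on RAE2.0 in TEG3 against OEC Ep. In OEC Lp against OEC Ep it had 0.3 on U34A and -1.0 on RAE2.0. Akr1b8, an enzyme like aldose reductase, had RAE2.0 signals of 2214 in TEG3, 2429 in OEC Lp and 11669 in OEC Ep. It was 5.27-fold lower in TEG3 and 4.8-fold lower in OEC Lp than in OEC Ep, with no test. Mt2A, a metallothionein that binds zinc and copper, had RAE2.0 signals of 17132 in TEG3, 2131 in OEC Lp and 4141 in OEC Ep. It was 4.14-fold higher in TEG3 than in OEC Ep and 8.04-fold higher than in OEC Lp, again with no test.

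The array types differed for many members. In OEC Lp against OEC Ep, 26 of the 38 members (68.4%) had the same sign on both types, against 61.9% of all genes tested. In TEG3 against OEC Ep, 22 members (57.9%) did, against 64% of all genes, and between TEG3 and OEC Lp 25 members (65.8%) did, against 56.5% of all genes. The log2 folds of the types were at least 1 apart for 9 members in TEG3 against OEC Ep, 15 in OEC Lp against OEC Ep and 8 between TEG3 and OEC Lp.

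**Figure D4:**
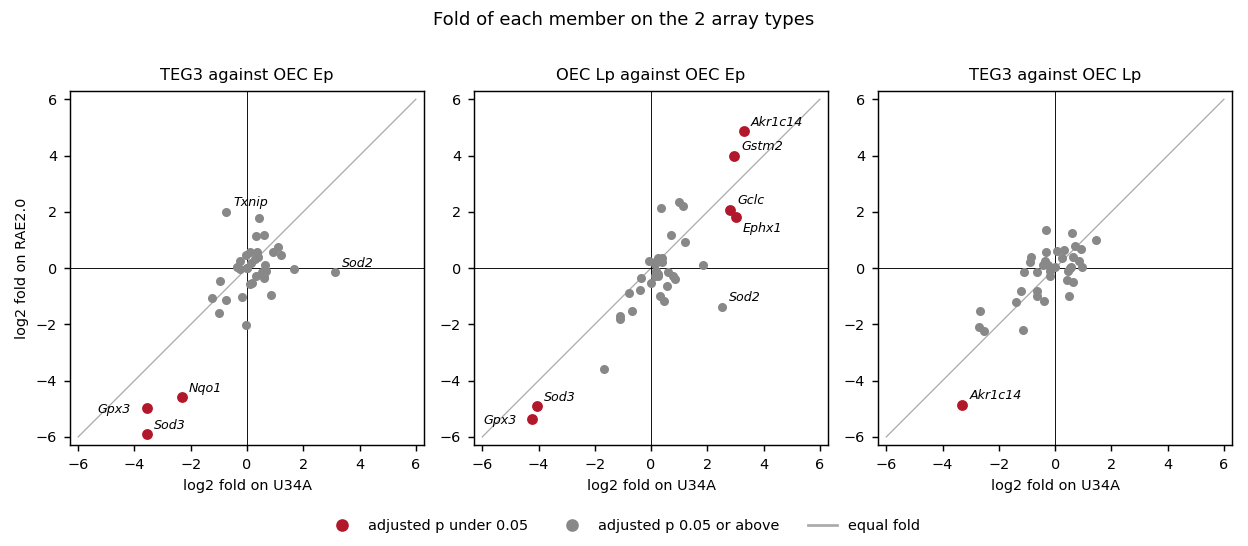
log2 fold of the 38 members on U34A (x axis) and on RAE2.0 (y axis) in the 3 comparisons; red points passed the test and the grey line marks equal folds. Sod2 lies off the line in TEG3 against OEC Ep (3.12 on U34A and -0.15 on RAE2.0), as does Txnip (-0.73 and 2.01).

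A further 93 genes of the same pathways were listed, of which 39 were measured on both types. In TEG3 against OEC Ep 0 of them were higher (background 0.639%) and 3 lower (Selenop, Aldh1a1 and Gstk1; background 3.7%), and by limma 14 (35.9%) had an unadjusted p under 0.05, against 21.7% of all genes. In OEC Lp against OEC Ep 3 were higher (Ahr, Cyp1b1 and Sult1a1; background 2.11%) and 2 lower (Selenop and Aldh1a1; background 4.02%). Between TEG3 and OEC Lp 0 were higher (background 0.192%) and 1 lower (Selenop; background 1.02%), and by limma 8 (20.5%) had an unadjusted p under 0.05, against 15.4% of all genes. Cyp1b1, a cytochrome P450 induced through the aryl hydrocarbon receptor, had U34A signals of 1408 in TEG3, 14463 in OEC Lp and 1172 in OEC Ep, and RAE2.0 signals of 1031 in TEG3, 11138 in OEC Lp and 2963 in OEC Ep. It rose 6.81-fold in OEC Lp against OEC Ep (log2 fold 2.77 ± 0.52, adjusted p = 0.0391). Ahr, that receptor, had U34A signals of 128 in TEG3, 366 in OEC Lp and 128 in OEC Ep, and RAE2.0 signals of 236 in TEG3, 712 in OEC Lp and 213 in OEC Ep. As fitted it rose 3.09-fold in OEC Lp against OEC Ep (1.63 ± 0.29, adjusted p = 0.035). The only U34A probe set of Ahr in use passed the filter through OEC Lp alone, so that a difference was built into its choice. Sult1a1, a sulfotransferase of phenols, had U34A signals of 204 in TEG3, 1157 in OEC Lp and 190 in OEC Ep, and RAE2.0 signals of 168 in TEG3, 571 in OEC Lp and 168 in OEC Ep. In the fit it rose 4.55-fold in OEC Lp against OEC Ep (2.18 ± 0.35, adjusted p = 0.0258), with 6.08-fold on U34A and at least 3.4-fold on RAE2.0. Its RAE2.0 probe set and 1 of those on U34A also passed the filter through OEC Lp alone. Cyp1b1, Ahr and Sult1a1 had their highest signal in OEC Lp on both types, as had Akr1c14, Gstm2, Gclc and Ephx1.

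Selenop, the secreted selenium carrier, had U34A signals of 128 in TEG3, 1290 in OEC Lp and 4982 in OEC Ep, and RAE2.0 signals of 209 in TEG3, 2965 in OEC Lp and 11909 in OEC Ep. The populations stood in the same order on both types and were well apart. As fitted, Selenop fell 47-fold in TEG3 (-5.56 ± 0.32, adjusted p = 0.00338) and 3.94-fold in OEC Lp (-1.98 ± 0.32, adjusted p = 0.0258) against OEC Ep. Between TEG3 and OEC Lp it fell 11.9-fold in TEG3 (-3.58 ± 0.32, adjusted p = 0.0232). The fall in TEG3 against OEC Ep was at least 38.8-fold on U34A and 57-fold on RAE2.0. Aldh1a1, a retinal dehydrogenase, had U34A signals of 522 in TEG3, 478 in OEC Lp and 2007 in OEC Ep, and RAE2.0 signals of 168 in TEG3, 168 in OEC Lp and 1047 in OEC Ep. As fitted it fell 4.9-fold in TEG3 (adjusted p = 0.0264) and 5.11-fold in OEC Lp (adjusted p = 0.0191) against OEC Ep, and on U34A, above the floor in each population, 3.85-fold in TEG3 and 4.2-fold in OEC Lp. The only RAE2.0 probe set of Aldh1a1 passed the filter through OEC Ep alone, so that a difference was built into its choice. Gstk1, the kappa class transferase of mitochondria and peroxisomes, had U34A signals of 329 in TEG3, 384 in OEC Lp and 2246 in OEC Ep, and RAE2.0 signals of 168 in TEG3, 596 in OEC Lp and 1221 in OEC Ep. As fitted it fell 7.04-fold in TEG3 against OEC Ep (adjusted p = 0.0402), with 6.83-fold on U34A and at least 7.27-fold on RAE2.0.

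Of these other pathway genes that did not pass, those with the largest folds were Gsta1, Gpx7, Hpgds and Ptgr1. Gsta1, an alpha class transferase, had U34A signals of 128 in TEG3, 1836 in OEC Lp and 1037 in OEC Ep, and RAE2.0 signals of 179 in TEG3, 356 in OEC Lp and 8961 in OEC Ep. TEG3 was lowest on both types, while OEC Lp was above OEC Ep on U34A and below it on RAE2.0, and TEG3 against OEC Ep gave -4.33 ± 1.2 (adjusted p = 0.12). All 3 U34A probe sets of Gsta1, but not its RAE2.0 probe set, are of the kinds that Affymetrix marks as shared between transcripts. Signals of relatives can thus be mixed in on U34A. Hpgds, the hematopoietic prostaglandin D synthase, a sigma class transferase also found in macrophages, had U34A signals of 128 in TEG3, 128 in OEC Lp and 327 in OEC Ep, and RAE2.0 signals of 168 in TEG3, 168 in OEC Lp and 1569 in OEC Ep. It was above the floor in OEC Ep alone, with a log2 fold of -2.29 ± 0.54 in TEG3 (adjusted p = 0.0893) and -2.29 ± 0.54 in OEC Lp (adjusted p = 0.0809) against OEC Ep. The probe sets of Hpgds in use passed the filter through OEC Ep alone, so that a difference was built into their choice. Gpx7, a peroxidase of the endoplasmic reticulum, gave -2.56 ± 0.78 between TEG3 and OEC Lp (adjusted p = 0.218), and Ptgr1, a prostaglandin reductase, gave -1.51 ± 0.44 (adjusted p = 0.206).

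**Figure D5:**
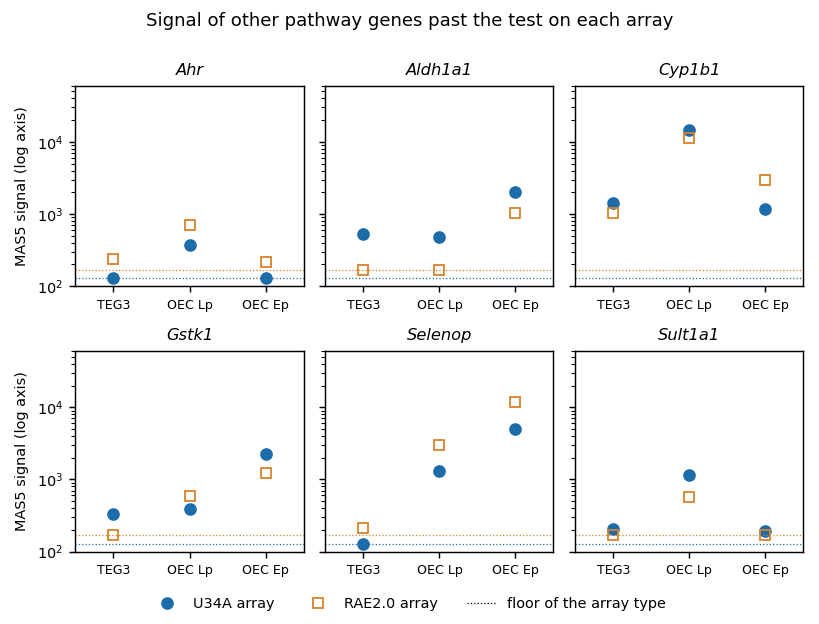
MAS5 signal (log axis) of the 6 other pathway genes that passed a test, in TEG3, OEC Lp and OEC Ep, with filled circles for U34A, open squares for RAE2.0 and dotted lines for the floors. Ahr, Cyp1b1 and Sult1a1 are highest in OEC Lp, and Selenop, Aldh1a1 and Gstk1 are highest in OEC Ep.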

How the data were processed

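The authors deposited linear MAS5 signal intensities, per the labels, and per the design text, which names U34A arrays alone, used Microarray Suite version 5.0 with a filter on probe sets. The scaling target and the filter's setting are not given in the sources used here. Arrays of a type were scaled to 1 mean after trimming 2% at each end. Signals under the 40th percentile (128.4 for U34A, 168 for RAE2.0) were raised to this floor, without control probe sets. Probe sets were named from the platform annotation where it gave 1 symbol (7006 for U34A and 20826 for RAE2.0; 308 and 436 had several, 1426 and 9780 none).

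limma 3.58.1 in R 4.3.3 was fitted to mean log2 intensities, computed from the deposited values, of the genes on both types over 6 arrays. Array type was the replicate block. The procedure was tested on simulated data. A fold fitted over both types counts a signal at the floor as the floor and is no bound. On 1 type, "at least" marks a population with all probe sets of the gene at the floor. The number of arrays limits the precision, and members on 1 type have no test. Named were the members called or at least 4-fold apart on a type, and other pathway genes called or, for 4 more, with the largest folds; further members illustrate their role. The members and lists were chosen with earlier results of these data known. Alternatives were no floor, no filter, a stricter filter, quantile normalization, the brightest probe set, no replicate block, 4 arrays alone, and leaving out each array.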

Additional observations from a re-analysis of the deposited data

How the results depend on the processing

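Each call among the members kept its direction under every alternative that gave a value (125 values, 0 reversed), but 91 of these values did not pass and 34 did. All 10 calls passed with quantile normalization and with the brightest probe set of a gene. Leaving out each array in turn gave 0 members for TEG3 against OEC Ep (6 to 8 at an unadjusted p under 0.05 by limma), 0 to 2 for OEC Lp against OEC Ep (9 to 14) and 0 between TEG3 and OEC Lp (6 to 8), where a population left with 1 array takes its spread from the others. In the same order of comparisons, the counts were 1, 2 and 0 (5, 11 and 9 unadjusted) without a floor, 0, 0 and 0 (10, 13 and 10) without a filter on low signal, and 0, 2 and 0 (7, 14 and 8) with the 4 arrays of the populations compared. Without the replicate block they were 0, 0 and 0 (3, 5 and 3), as the level difference between the array types then counts as spread. With probe sets above the floor on all arrays of the type, TEG3 against OEC Lp gave 2, Ephx1 and Gstm2. Of the members with a call, Akr1c14, Gpx3 and Gclc were not measured on both types under this filter and had no fit. Nqo1 in OEC Lp against OEC Ep passed under this filter and with the brightest probe set. Over all genes the counts were 136, 192 and 38, against 11, 66 and 0 without a floor, 1, 1 and 0 without the filter, 86, 77 and 40 with the stricter filter, 0, 41 and 0 with 4 arrays, 0, 0 to 41 and 0 without 1 array, and 0, 0 and 0 without the block. Differences that had not passed reversed in 15 of 331 values. Sod3 between TEG3 and OEC Lp became 0.01 with the stricter filter and 0.01 with the brightest probe set, and Hmox1 there became -0.15 with the brightest probe set. Leaving out each array in turn gave -0.06 to 0.75 for Gclc and -0.44 to 0.46 for Ephx1 in TEG3 against OEC Ep. For Sod2 it gave -0.31 to 3.28 in TEG3 against OEC Ep, -1.23 to 2.36 in OEC Lp against OEC Ep and -0.21 to 2.05 between TEG3 and OEC Lp. For Txnip it gave -0.49 to 1.77 in TEG3 against OEC Ep and -1.53 to 0.32 between TEG3 and OEC Lp, where Sod3 had -1.21 to 0.72 and Hmox1 -0.72 to 0.84. The cause of these changes was not tested. A fold fitted with signals at the floor depends on that floor.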

Other observations

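On RAE2.0, some other pathway genes differed between the populations, given here as values from 1 array each and chosen after their values were seen. Chac1, Mt1 and Osgin1 were measured on RAE2.0 alone and have no test. Chac1, which breaks down glutathione, had signals of 9540 in TEG3, 3946 in OEC Lp and 1509 in OEC Ep. Its signal was highest in TEG3 and lowest in OEC Ep. Mt1, a metallothionein like Mt2A, had signals of 905 in TEG3, 255 in OEC Lp and 263 in OEC Ep, highest in TEG3 as Mt2A was. Mt3, a metallothionein of the brain, was instead highest in OEC Ep, with RAE2.0 signals of 168 in TEG3, 168 in OEC Lp and 324 in OEC Ep and U34A signals of 128 in TEG3, 128 in OEC Lp and 224 in OEC Ep, above the floor in OEC Ep alone. Its probe sets passed the filter through OEC Ep alone. The limma fit gave -0.88 ± 0.29 in TEG3 (adjusted p = 0.168) and in OEC Lp (adjusted p = 0.181) against OEC Ep. Neither passed. Osgin1, a gene induced by oxidative stress, had signals of 208 in TEG3, 675 in OEC Lp and 168 in OEC Ep, at the floor in OEC Ep.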
